A study of Mus musculus with 15 samples.

Results

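Brain microvessels of the tumour region after dual therapy were compared with microvessels of the opposite, tumour-free hemisphere of mice that received control IgG. Dual therapy paired aflibercept, which traps VEGF as a soluble decoy receptor, and AMG386, a peptide-Fc fusion that blocks angiopoietins. The comparison rests on 6 of the 15 libraries of the study, 3 in each group, and covers every gene that scored at least 10 in at least 3 of the 15 libraries. These were 19668 of the 27174 genes in the table, and the other 7506 were not tested. At the edge of this filter, 644 genes reached the minimum in exactly 3 libraries and were kept, and 906 reached it in 2 and were left out.

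All mice were adult wild-type BL6/57 animals, and vessels were isolated 21 days after tumour cells were transplanted. Each library is a pool of 3 mice, so differences between single animals cannot be seen. Beside dual therapy, the study holds vessels of the tumour region after triple therapy (aflibercept and AMG386 with an antibody against PD-1), vessels of the tumour region under control IgG (untreated tumour), the contralateral vessels and vessels of sham-operated mice, in 3 libraries each. Which tumour cells were transplanted is not given. Dual therapy and contralateral vessels differ in brain region, in treatment and in the animals they came from, and these cannot be told apart in this comparison. The same contralateral libraries also stand against untreated tumour, so the difference between dual therapy and untreated tumour was tested directly and is given beside the results.

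Vessels of the healthy brain form the blood-brain barrier: endothelial cells joined by tight junctions, rich in transporters, wrapped by pericytes and kept in this state by Wnt signals. VEGF acts through its receptor VEGFR2 to make vessels sprout and leak, and angiopoietins act through the receptor Tie2 to set vessel stability. Interferon-gamma, released by activated T cells and NK cells, switches on genes for guanylate-binding proteins, chemokines that attract T cells and the machinery that presents antigens.

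Values are the authors' normalised scores, which are read numbers rescaled library by library and rounded. The factor was estimated here, and by that estimate the dual therapy libraries hold 14041739, 11792821 and 15535391 reads, and the contralateral libraries 9752096, 11392154 and 11931606. Fold changes are differences of log2(score + 1), dual therapy minus contralateral unless named otherwise, with the standard error (SE) of a limma fit of all 15 libraries. A gene is said to have risen or fallen where its limma p was below 0.05 after Benjamini-Hochberg adjustment over the 19668 genes. Correlations of log2 scores were 0.941 to 0.957 within dual therapy, 0.965 to 0.975 within contralateral vessels and 0.922 to 0.944 between them. Dual therapy replicate 2 stood apart, at -66.38 on the second principal component against -20.04 and -38.74 for the other libraries of its group. All 19 genes of an endothelial identity list passed the filter. Their summed scores were 77028 to 84060 in dual therapy and 75376 to 96537 in contralateral vessels. All 16 neuron and all 14 astrocyte markers passed too, so the filter does not identify the preparation. Summed astrocyte scores were 21804 to 54574 in dual therapy and 41342 to 51580 in contralateral vessels.

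Many genes differed, and those that rose did so by more than those that fell. In dual therapy vessels 1360 genes rose (6.91% of those tested) and 1158 fell (5.89%). The median log2 fold change of the risen genes was 1.47, and 218 of them were more than 8-fold higher. The fallen genes had a median change of 0.88 in size, and 7 were more than 8-fold lower. The 3 dual therapy libraries lay wholly above the 3 contralateral libraries for 1314 of the 1360 risen genes. They lay wholly below them for 1097 of the 1158 fallen genes. The calls were made on these same libraries, so this separation is no further evidence for them. Among all genes tested, 14.8% lay wholly above and 13.6% wholly below. The transcript Gm26917 took 1.97%, 1.66% and 1.31% of the score in dual therapy and 4.17% to 5.64% in untreated tumour, against 0.436%, 0.68% and 0.462% in contralateral vessels, with no overlap, and its part in these differences was not tested. Without contralateral replicate 3 the calls dropped to 1587, and without dual therapy replicate 2 to 1821. With the libraries scaled to equal endothelial identity, 1555 genes were called, of which 65.5% rose, against 54% in the fit as reported.

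**Figure D1:**
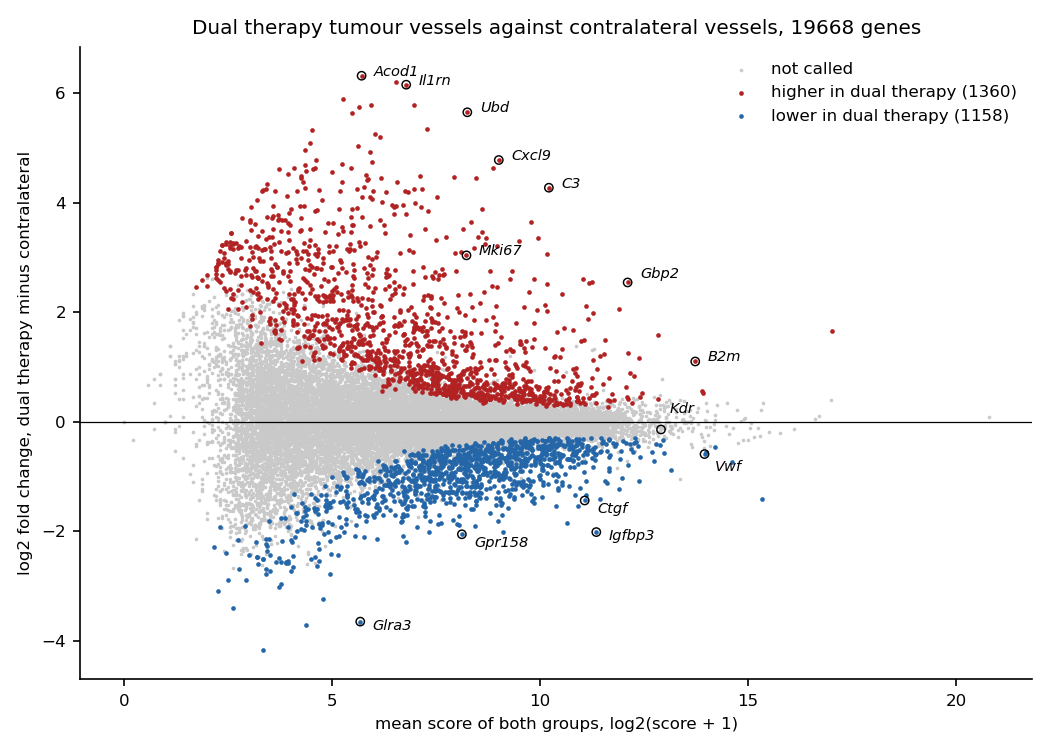
Log2 fold change of each of 19668 genes (dual therapy minus contralateral, y axis) against the mean score of both groups (x axis, log2(score + 1)). Red points are the 1360 genes that rose and blue points the 1158 that fell at a limma adjusted p below 0.05, and the risen genes reach further from 0 than the fallen ones.

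The genes with the largest rises were mostly immune genes that were close to silent in the contralateral hemisphere. They were taken from genes that passed the test, averaged at least 50 in the higher group and showed no overlap between groups. Acod1, whose enzyme makes itaconate in activated macrophages, scored 99, 74 and 135 in dual therapy vessels, against 1, 0 and 0 in contralateral vessels (log2 fold change 6.32 ± 0.63, limma adjusted p = 3.32e-06). Il1rn, which encodes the antagonist of the interleukin-1 receptor, scored 242, 127 and 279 in dual therapy vessels, against 3, 5 and 0 in contralateral vessels (6.16 ± 0.59). Ubd, a ubiquitin-like gene induced by interferon-gamma, scored 718, 295 and 781 in dual therapy vessels, against 16, 6 and 10 in contralateral vessels (5.65 ± 0.55). The dual therapy libraries of these genes reached at least 74, and the contralateral libraries at most 16. Il12b, which encodes the shared subunit of interleukins 12 and 23, scored 83, 19 and 122 in dual therapy vessels and was listed at 0 in all 3 contralateral libraries. Cxcl11, a chemokine that draws T cells, had a log2 fold change of 5.34 ± 0.66. The guanylate-binding protein genes Gbp2b (6.20 ± 0.65) and Gbp10 (5.79 ± 0.71) also stood among the highest, but they have close paralogs, so reads could be split between copies. Both calls were lost in 1 alternative each, Gbp2b at an adjusted p of up to 0.109 and Gbp10 of up to 0.055. Apol7c (5.79), a member of the apolipoprotein L family, H2-M2 (5.63), Ifi205 (5.21), Nxf3 (5.74) and Strc (5.25) completed the 12 genes with the largest rises. For 10 of these 12 the limma test against untreated tumour was not passed, while Strc and Nxf3 were lower in dual therapy than in untreated tumour (-2.79 ± 0.49 and -1.75 ± 0.59).

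Interferon-stimulated genes were higher in dual therapy vessels almost without exception. Of 36 genes of an interferon response list, 35 rose and none fell, against 6.91% of all genes tested that rose. Their median log2 fold change was 1.76, beside 0.00 over all genes tested. Cxcl9, a chemokine induced by interferon-gamma (ENSMUSG00000029417, GRCm38 chromosome 5, 92321347 to 92328079), scored 1457, 488 and 1012 in dual therapy vessels, against 80, 9 and 42 in contralateral vessels (4.78 ± 0.73, limma adjusted p = 0.000219). The related Cxcl10 scored 1206, 620 and 881 in dual therapy vessels, against 43, 27 and 34 in contralateral vessels (4.63 ± 0.53). The lowest dual therapy library of each chemokine exceeded the highest contralateral library several times over. The contralateral vessels were themselves above sham vessels for both, with 6, 2 and 0 for Cxcl9 (contralateral minus sham 3.57 ± 0.73, adjusted p = 0.0343) and 9, 2 and 1 for Cxcl10 (3.16 ± 0.53, adjusted p = 0.0113).

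The same held for members with high scores. Gbp2, a guanylate-binding protein gene of host defence (ENSMUSG00000028270, chromosome 3, 142620602 to 142638008), scored 9231, 6331 and 7047 in dual therapy vessels, against 1282, 1324 and 1224 in contralateral vessels (2.54 ± 0.28, limma adjusted p = 8.8e-06). Gbp3 scored 6627, 5928 and 5809 in dual therapy vessels, against 1541, 1376 and 1509 in contralateral vessels (2.05 ± 0.15, adjusted p = 2.55e-07). Irgm1, an immunity-related GTPase gene, scored 4173, 3230 and 3319 in dual therapy vessels, against 888, 771 and 812 in contralateral vessels (2.11 ± 0.21). No library of either group crossed into the other for these genes. The regulators of the response rose too: Irf7 by 2.12 ± 0.15, Stat2 by 1.37 ± 0.17 and Irf9 by 0.75 ± 0.13. Ido1, which encodes a tryptophan-degrading enzyme that restrains T cells, rose by 3.95 ± 0.66, a call lost in 1 alternative. Ifitm3 was the member not called, at 1526, 1030 and 646 in dual therapy vessels, against 721, 988 and 679 in contralateral vessels (0.36 ± 0.23, adjusted p = 0.34).

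Few interferon genes differed from untreated tumour. The median of the list over contralateral vessels was 1.72 in untreated tumour, and in the direct test 1 member, Ifit1, was higher in dual therapy (0.43 ± 0.15, limma adjusted p = 0.0385) and 2 were lower, Bst2 (-0.74 ± 0.21) and Stat2 (-0.52 ± 0.17). In the same test 12.1% of all genes were higher and 10.2% lower. A p above the threshold does not show that the others were equal.

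Genes induced by interferon carry the interferon-stimulated response element in their promoters, a pair of GAAA repeats spaced so that STAT and IRF factors bind. The letters GAAANNGAAA were searched on both strands of RefSeq promoter windows (GRCm38.p6, 250 bases before to 50 after the start). A window was found for 26 of the 36 list members and for 12301 of the genes tested. The letters stood in 18 of the 26 (69.2%), in 116 of 948 risen genes (12.2%), in 34 of 837 fallen genes (4.06%) and in 487 of the 12301 genes tested (3.96%). The windows of 3 highly expressed members are given because they hold these letters. Capitals mark each match, read as TTTCNNTTTC where it lies on the other strand. Gbp3 lies on chromosome 3 (chr3:142559794-142560093, + strand), Irgm1 on chromosome 11 (chr11:48871371-48871670, - strand) and Gbp2 on chromosome 3 (chr3:142620413-142620712, + strand).
Gbp3: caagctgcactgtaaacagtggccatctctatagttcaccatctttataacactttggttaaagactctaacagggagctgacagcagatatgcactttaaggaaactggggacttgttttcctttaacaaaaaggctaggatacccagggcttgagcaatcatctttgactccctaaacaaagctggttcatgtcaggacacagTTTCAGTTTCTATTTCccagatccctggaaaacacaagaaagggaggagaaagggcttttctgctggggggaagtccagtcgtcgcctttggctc
Irgm1: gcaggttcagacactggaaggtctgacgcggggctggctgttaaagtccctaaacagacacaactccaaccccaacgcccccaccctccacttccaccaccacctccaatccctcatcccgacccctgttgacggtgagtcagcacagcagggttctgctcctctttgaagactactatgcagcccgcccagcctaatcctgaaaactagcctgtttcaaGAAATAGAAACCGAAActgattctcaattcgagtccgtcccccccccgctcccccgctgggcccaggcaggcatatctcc
Gbp2: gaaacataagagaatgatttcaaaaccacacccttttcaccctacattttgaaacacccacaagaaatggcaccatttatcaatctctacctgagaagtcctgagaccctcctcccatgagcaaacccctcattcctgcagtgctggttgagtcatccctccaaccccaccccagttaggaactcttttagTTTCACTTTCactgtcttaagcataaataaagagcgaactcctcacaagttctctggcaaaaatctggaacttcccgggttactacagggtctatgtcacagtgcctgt
In Gbp3 and Irgm1 there are 2 overlapping matches, and in Gbp2 there is 1. A match is a description of the sequence and was not tested for binding.

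Antigen presentation genes were higher in dual therapy vessels. All 22 genes of a list of MHC class I and class II presentation rose, beside 6.91% of all genes tested. Their median was 1.84. B2m, the invariant chain of class I molecules, scored 23203, 15562 and 16958 in dual therapy vessels, against 9979, 8209 and 7601 in contralateral vessels (1.10 ± 0.16, limma adjusted p = 0.000133). H2-K1, a class I heavy chain, rose by 1.50 ± 0.19, and Tap1, the peptide transporter that loads class I, by 2.02 ± 0.24. Class II genes rose further. H2-Ab1 (ENSMUSG00000073421, chromosome 17, 34263209 to 34269418) scored 2095, 831 and 2011 in dual therapy vessels, against 181, 104 and 91 in contralateral vessels (3.65 ± 0.35), and the libraries were far apart. Cd74, the class II chaperone, rose by 3.36 ± 0.41 and H2-Eb1 by 3.30 ± 0.39. Reads of H2 genes can be shared between near-identical copies, so single values in this family are uncertain. The coactivators that control the 2 classes also rose: Nlrc5 for class I by 3.07 ± 0.28 and Ciita for class II by 2.75 ± 0.37. Nlrc5 was the list member that differed from untreated tumour: it scored 2176, 1937 and 1995 in dual therapy, against 5955, 3900 and 5434 in untreated tumour (-1.30 ± 0.28, adjusted p = 0.00313).

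Checkpoint genes rose with them. Of 14 genes, 12 rose, beside 6.91% of all genes tested, with a median of 2.47. Cd274, which encodes PD-L1, the ligand that turns off T cells (ENSMUSG00000016496, chromosome 19, 29367455 to 29388095), scored 1258, 945 and 974 in dual therapy vessels, against 206, 139 and 177 in contralateral vessels (2.60 ± 0.32, limma adjusted p = 2.46e-05). Dual therapy was not called against untreated tumour for it (0.38 ± 0.32, adjusted p = 0.431). Pdcd1lg2, the second ligand, rose by 4.70 ± 0.66, and Ctla4, an inhibitory receptor of T cells, scored 74, 25 and 103 in dual therapy vessels, against 3, 3 and 3 in contralateral vessels (3.88 ± 0.51). Havcr2, which encodes TIM-3, rose by 2.0 ± 0.28 and was lower than in untreated tumour (-0.84 ± 0.28, adjusted p = 0.0367). Pdcd1, which encodes PD-1, was uneven: 36, 3 and 44 in dual therapy vessels, against 0, 4 and 0 in contralateral vessels (3.46 ± 0.90, adjusted p = 0.0156). Its groups overlap at dual therapy replicate 2, and its call was lost in 7 of 16 alternatives. Cd80 (0.94 ± 0.37) and Cd276 (0.57 ± 0.30) were not called, and Cd276 was lower than in untreated tumour (-2.19 ± 0.30).

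Markers of T cells and NK cells were higher in the same libraries. Of 29 tested markers, 24 rose and none fell, beside 6.91% and 5.89% of all genes tested, with a median of 3.22. Their summed score was 1630 to 2505 in dual therapy and 2382 to 2919 in untreated tumour, against 345 to 450 in contralateral and 280 to 311 in sham vessels. No tested marker was at 0 in all 3 contralateral libraries, though 8 were at 0 in at least 1. Lck averaged 61.3 in dual therapy and 5.67 in contralateral vessels, and Tbx21 17 and 1. Markers under the filter minimum in contralateral vessels could hardly be called as fallen. The counts of risen and fallen markers are therefore partly set by the filter. The same holds for such members of the checkpoint, chemokine and proliferation lists. Cd3e, a subunit of the T cell receptor complex, scored 133, 88 and 129 in dual therapy vessels, against 9, 2 and 10 in contralateral vessels (4.07 ± 0.50, limma adjusted p = 2.73e-05). Ncr1, a receptor of NK cells, rose by 4.95 ± 0.48, and the granzyme gene Gzma by 3.91 ± 0.39. Cd4 (1.92 ± 0.38), Cd8a (1.99 ± 0.53) and Foxp3 of regulatory T cells (2.04 ± 0.48) rose less. The call of Cd8a was lost in 3 of 16 alternatives. The T cell chemokine receptor gene Cxcr3 was not called (1.30 ± 0.73). In bulk RNA a change in the number of cells of a type and a change in RNA per cell cannot be told apart. The part of these cells in the rise of interferon, MHC and checkpoint genes was not tested.

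**Figure D2:**
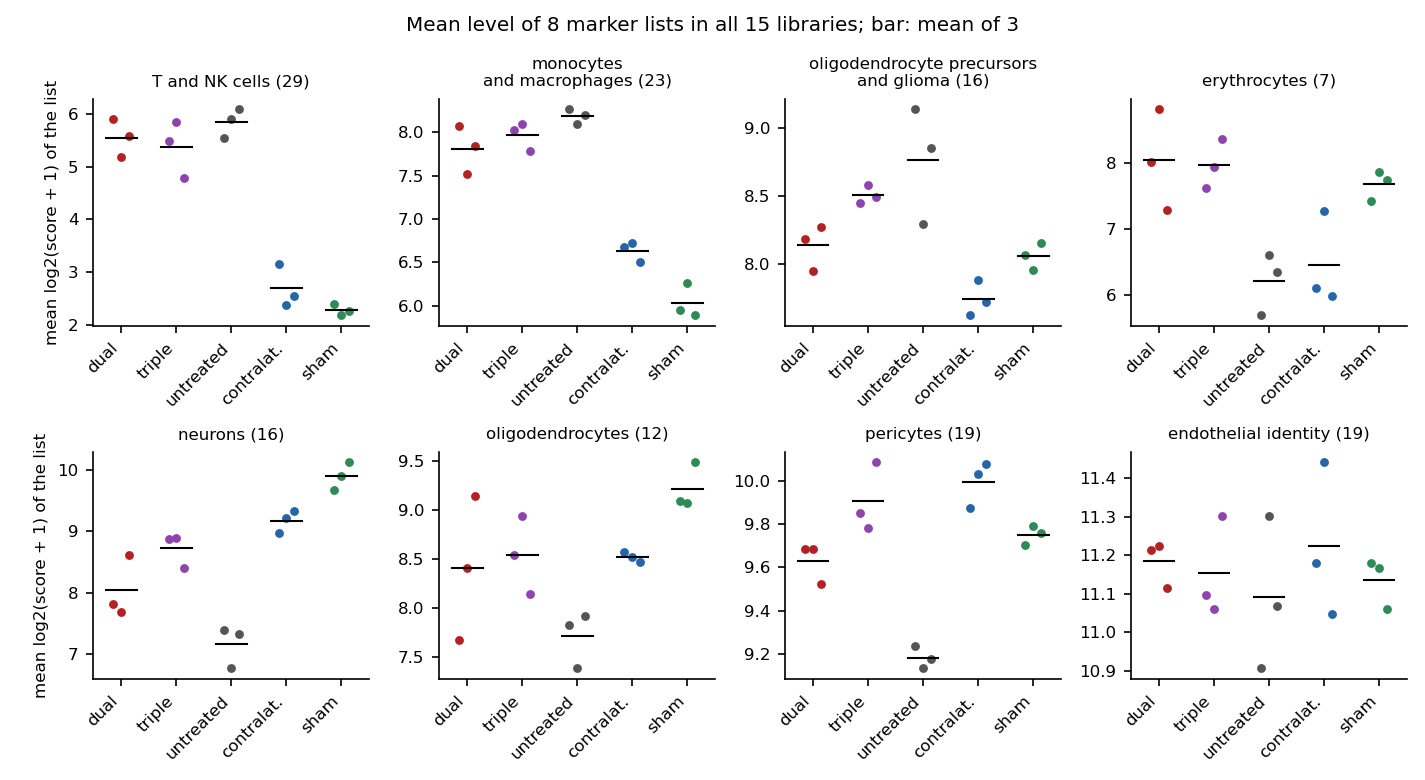
Mean log2(score + 1) of 8 marker lists (members tested in brackets) in each of the 15 libraries, by group, with bars at the mean of 3 libraries; y axes differ between panels. T and NK cell markers lie near 5.56 in dual therapy and 2.69 in contralateral vessels, neuron markers near 8.05 and 9.17, and endothelial identity near 11.2 in both.

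Chemokines, complement and myeloid genes followed in part. Of 23 chemokine and receptor genes, 12 rose and none fell, beside 6.91% and 5.89% of all genes tested, with a median of 2.0. Cxcl9 and Cxcl10 also belong to the interferon list and Ccl5 to the T cell list. Ccr7, which guides dendritic cells and T cells to lymph nodes, scored 122, 78 and 129 in dual therapy vessels, against 6, 5 and 2 in contralateral vessels (4.43 ± 0.53, limma adjusted p = 2e-05). Ccl22 rose by 4.01 ± 0.61 and Ccl5 by 4.28 ± 0.46. Of 17 complement genes 11 rose, beside the same 6.91% of all genes tested. C3, the central component, scored 2926, 895 and 2954 in dual therapy vessels, against 186, 103 and 54 in contralateral vessels (4.27 ± 0.46, adjusted p = 6.89e-06), and C4b rose by 1.80 ± 0.22 and C1qa by 0.81 ± 0.18. The number of complement genes that rose was 6 without dual therapy replicate 1, contralateral replicate 2 or contralateral replicate 3. Ccl4, a chemokine of T cells and macrophages, was listed at 0 in all 3 contralateral libraries. Its rise (limma adjusted p = 0.0193) was lost in 6 of 16 alternatives.

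Myeloid markers moved in both directions. Of 23 markers of monocytes and macrophages, 9 rose and 2 fell, beside 6.91% and 5.89% of all genes tested. Their median was 0.49. Gpnmb, a glycoprotein gene of lipid-laden macrophages and of tumour cells, scored 1059, 555 and 400 in dual therapy vessels, against 19, 36 and 30 in contralateral vessels (4.44 ± 0.38, limma adjusted p = 1.4e-06). It was lower than in untreated tumour (-1.65 ± 0.38). Arg1, the arginase of alternatively activated macrophages, rose by 3.97 ± 0.39, Itgax by 3.79 ± 0.43, the monocyte receptor gene Ccr2 by 2.70 ± 0.35 and Lyz2 by 1.87 ± 0.20. Mrc1, a mannose receptor of macrophages that sit along vessels, fell by 0.52 ± 0.14 on the log2 scale, and Spp1, which encodes osteopontin, fell by 1.20 ± 0.21. Mrc1 scored 1974, 1422 and 1483 in dual therapy vessels, against 2353, 2141 and 2440 in contralateral vessels; its call was lost in 6 of 17 alternatives. Only 1 marker fell without dual therapy replicate 2 or 3, or contralateral replicate 1 or 3. Of 12 microglia markers, Aif1 (2.08 ± 0.42) and Cx3cr1 (0.63 ± 0.18) rose, while Tmem119 (0.40 ± 0.25) and P2ry12 (-0.50 ± 0.18) were not called. Of 10 B cell markers, Ms4a1 (2.90 ± 0.71), Pax5 (2.42 ± 0.44) and Ighm (1.47 ± 0.27) rose. Of 5 neutrophil markers tested, Csf3r rose (2.20 ± 0.43).

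Genes of dividing cells were higher than in the opposite hemisphere, yet far below untreated tumour. Of 34 proliferation genes, 22 rose and none fell, beside 6.91% and 5.89% of all genes tested, with a median of 1.60. Against untreated tumour, 33 of the 34 were lower and none higher, beside 10.2% and 12.1% of all genes tested. The median of untreated tumour over contralateral vessels was 4.03. Mki67, which encodes the Ki-67 protein of cycling cells (ENSMUSG00000031004, chromosome 7, 135689784 to 135716361), scored 671, 335 and 597 in dual therapy vessels and 5465, 1933 and 3323 in untreated tumour, against 88, 35 and 75 in contralateral vessels. The 3 groups did not overlap. Its log2 fold change was 3.04 ± 0.33 over contralateral vessels (limma adjusted p = 7.97e-06) and -2.67 ± 0.33 against untreated tumour (adjusted p = 4.09e-05). Top2a, the topoisomerase of dividing cells, behaved alike, with 3.10 ± 0.33 and -2.57 ± 0.33, as did Cenpf, a kinetochore gene, with 2.83 ± 0.38 and -2.75 ± 0.38. Ccnb1, the mitotic cyclin, scored 25, 12 and 20 in dual therapy vessels, against 0, 0 and 2 in contralateral vessels (3.74 ± 0.73). Mcm2, part of the helicase that licenses replication, was not called (0.42 ± 0.14, adjusted p = 0.0546), and the call of E2f1 (1.35 ± 0.42) was lost in 11 of 17 alternatives.

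Promoters of such genes carry the cell cycle homology region and the CCAAT box, through which their transcription follows the cell cycle. The letters TTTGAA stood in 14 of 28 members with a window (50%), against 1808 of 12301 genes tested (14.7%). CCAAT stood in 22 of 28 (78.6%), against 5174 (42.1%). Neither was particular to this list: CCAAT stood in 15 of 17 antigen presentation genes (88.2%) and TTTGAA in 9 of 26 barrier genes (34.6%). Both strands were searched, and these short letters occur often without function. The windows of Top2a on chromosome 11 (chr11:99024140-99024439, - strand) and Mki67 on chromosome 7 (chr7:135716330-135716629, - strand) are shown. They were chosen by lowest adjusted p among risen members whose window holds both TTTGAA and CCAAT, so matches in them were certain. Capitals mark TTTGAA or CCAAT, or TTCAAA or ATTGG where the match is on the other strand.
Top2a: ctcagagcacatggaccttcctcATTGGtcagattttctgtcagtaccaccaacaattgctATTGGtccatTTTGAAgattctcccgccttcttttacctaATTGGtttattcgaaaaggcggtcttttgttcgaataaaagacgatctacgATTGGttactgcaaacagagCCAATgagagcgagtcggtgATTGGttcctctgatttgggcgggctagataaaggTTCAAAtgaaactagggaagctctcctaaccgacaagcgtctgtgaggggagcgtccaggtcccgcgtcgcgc
Mki67: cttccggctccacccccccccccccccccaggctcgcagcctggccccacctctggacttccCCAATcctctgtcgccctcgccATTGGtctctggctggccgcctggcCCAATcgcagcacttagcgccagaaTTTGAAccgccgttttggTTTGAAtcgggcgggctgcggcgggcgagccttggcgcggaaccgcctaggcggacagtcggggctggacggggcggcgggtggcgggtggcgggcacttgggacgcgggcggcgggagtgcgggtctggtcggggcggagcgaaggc
Top2a holds 8 matches in all and Mki67 5.

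Markers of the oligodendrocyte lineage and of glioma cells rose in part. Of 16 genes, 6 rose and 1 fell, beside 6.91% and 5.89% of all genes tested. The list median was 0.45 over contralateral vessels and -0.01 over sham vessels, and that of contralateral over sham vessels was -0.37. Olig2, a lineage factor, scored 124, 110 and 168 in dual therapy vessels and 931, 368 and 592 in untreated tumour, against 55, 51 and 54 in contralateral and 71, 82 and 111 in sham vessels (1.29 ± 0.28 over contralateral, limma adjusted p = 0.00489). Cd44, an adhesion receptor of invasive cells, rose by 1.85 ± 0.27, Sox10 by 1.41 ± 0.35, Gpr17 by 0.88 ± 0.21 and Nes, which encodes the intermediate filament nestin, by 0.90 ± 0.19. Vcan is the sixth, and the fallen gene is Pdgfra (-0.66 ± 0.21), whose call was lost in 9 of 17 alternatives, among them without dual therapy replicate 2 or 3, or contralateral replicate 1 or 3. For Nes, dual therapy lay at 4506, 7250 and 6236, against 2822, 4151 and 2701 in contralateral vessels, while sham vessels held 4939, 5473 and 5907, within the dual therapy range. The part of tumour cells in the rise of proliferation genes was not tested.

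The pathways that the drugs act on were measured next. Of 16 genes of the VEGF and angiopoietin pathway, 1 fell and none rose, beside 5.89% and 6.91% of all genes tested, and the median was -0.15. Kdr, which encodes VEGFR2 (ENSMUSG00000062960, chromosome 5, 75932827 to 75978458), scored 6640, 8450 and 6766 in dual therapy vessels, against 7290, 9745 and 7203 in contralateral vessels (-0.14 ± 0.14, limma adjusted p = 0.576). Flt1, the decoy-like receptor VEGFR1, had -0.21 ± 0.18, Flt4 of lymphatic signalling -0.22 ± 0.14, and the ligand genes Vegfa 0.06 ± 0.21 and Pgf -0.37 ± 0.16. Tek, which encodes Tie2, scored 9707, 11682 and 10258 in dual therapy vessels, against 9089, 9596 and 9137 in contralateral vessels (0.18 ± 0.17, adjusted p = 0.536), and its partner Tie1 had 0.06 ± 0.13. Angpt1, the agonist of Tie2, had -0.26 ± 0.25. Angpt2, the angiopoietin that destabilises vessels, scored 1091, 869 and 819 in dual therapy vessels, against 524, 1641 and 634 in contralateral and 348, 454 and 355 in sham vessels (0.17 ± 0.34, adjusted p = 0.805), and its sign turned without contralateral replicate 1 or 3. The fallen gene was Angpt4, a ligand of Tie2, at 6, 5 and 1 in dual therapy vessels, against 31, 21 and 23 in contralateral and 6, 11 and 8 in sham vessels (-2.55 ± 0.57, adjusted p = 0.0055). These are low scores, and the dual therapy values lie at or below those of sham. Against untreated tumour 6 members were higher, Tek by 0.94 ± 0.17 and Angpt1 by 0.96 ± 0.25 among them. Lower were 2, Angpt2 (-1.29 ± 0.34) and Vegfa (-0.75 ± 0.21). In that test 12.1% of all genes were higher and 10.2% lower.

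Most genes of sprouting endothelium were lower than in untreated tumour. Of 27 genes, 2 rose and 3 fell over contralateral vessels, beside 6.91% and 5.89% of all genes tested, with a median of -0.16, while the median of untreated tumour over contralateral vessels was 0.66. In the direct test 19 of the 27 were lower than in untreated tumour and none higher, beside 10.2% and 12.1% of all genes. Igfbp3, an insulin-like growth factor binding protein (ENSMUSG00000020427, chromosome 11, 7206086 to 7213923), scored 1071, 837 and 1119 in dual therapy vessels and 11223, 6285 and 10560 in untreated tumour, against 5320, 2715 and 4626 in contralateral and 1903, 1933 and 1395 in sham vessels. All 3 dual therapy libraries lay below every library of these other groups. The log2 fold change was -2.02 ± 0.22 over contralateral vessels (limma adjusted p = 9.15e-06) and -3.18 ± 0.22 against untreated tumour (adjusted p = 4.87e-07). Contralateral vessels were above sham for this gene (1.23 ± 0.22, adjusted p = 0.0193). Dll4, the Notch ligand of tip cells (ENSMUSG00000027314, chromosome 2, 119325784 to 119335962), scored 567, 672 and 716 in dual therapy vessels, against 1035, 2298 and 1144 in contralateral and 546, 677 and 613 in sham vessels (-1.10 ± 0.23, adjusted p = 0.00358). Dual therapy thus lay beside sham, and contralateral vessels lay above sham (1.19 ± 0.23, adjusted p = 0.0273). Trp53i11 fell by 0.61 ± 0.13, Mmp14, a membrane protease, rose by 0.72 ± 0.17, and Nes is the other risen member. Without contralateral replicate 2, 5 members rose, and without contralateral replicate 3, 1 did. The apelin receptor gene Aplnr scored 67, 50 and 72 in dual therapy and 628, 460 and 674 in untreated tumour, against 65, 34 and 15 in contralateral vessels (0.93 ± 0.37, adjusted p = 0.112; against untreated tumour -3.20 ± 0.37). Its ligand gene Apln (0.75 ± 0.47), Esm1 (-0.87 ± 0.48) and Plvap, which encodes the diaphragm protein of leaky vessels (-0.67 ± 0.29, adjusted p = 0.146), were not called.

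**Figure D3:**
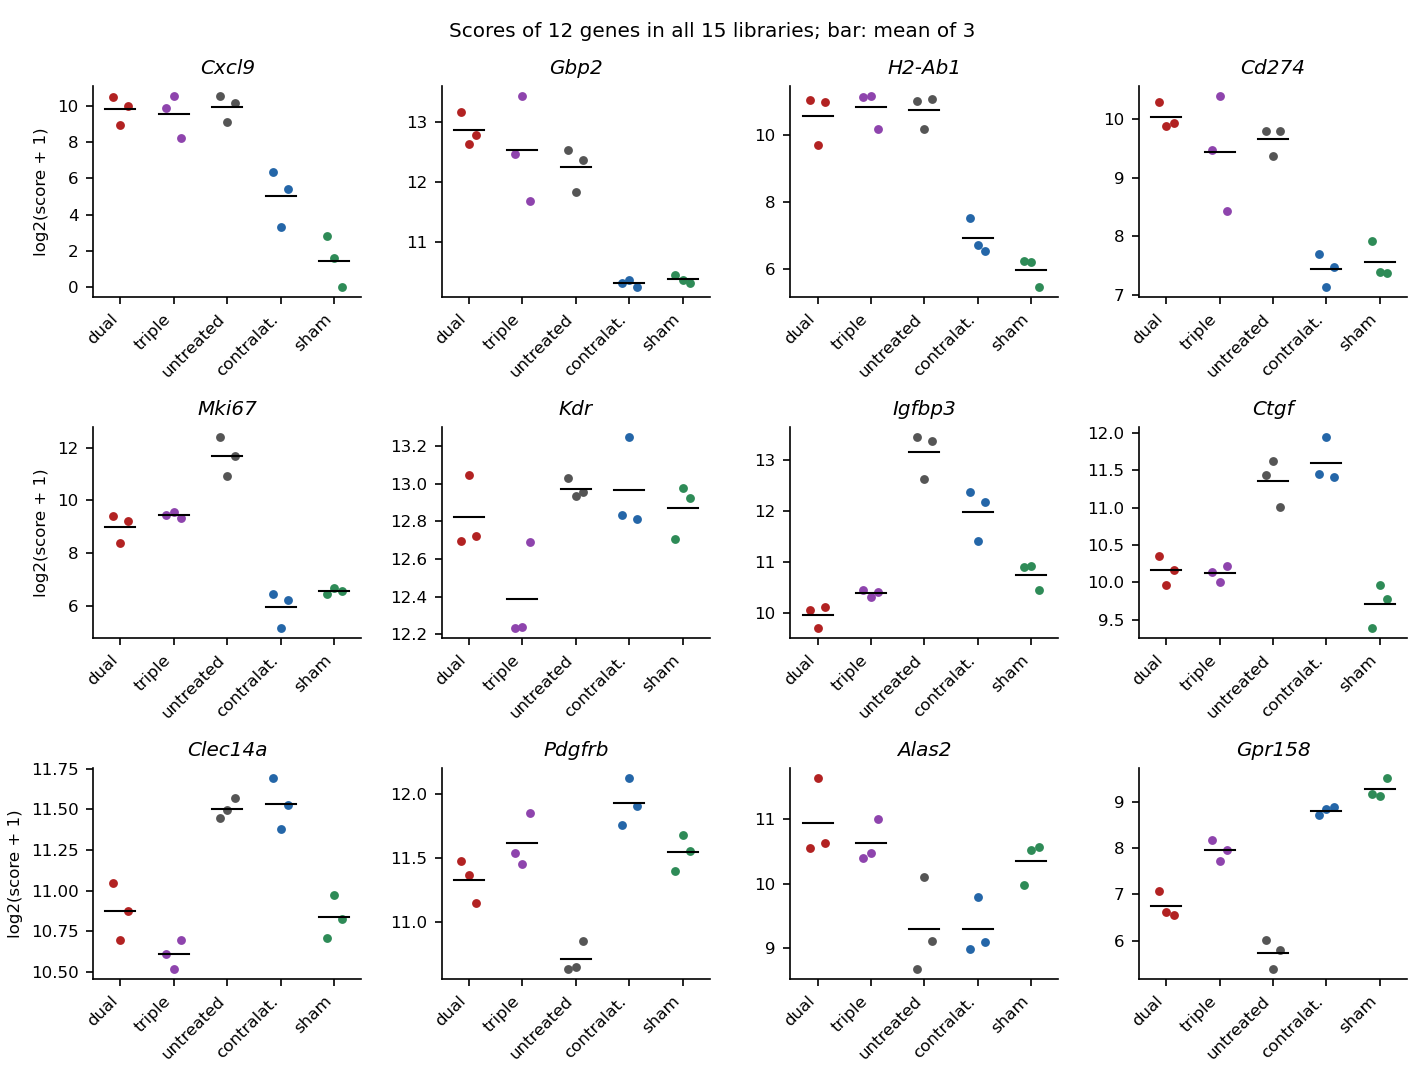
Scores of 12 genes as log2(score + 1) in each of the 15 libraries, by group, with bars at the mean of 3 libraries; y axes differ between panels. Igfbp3 is lowest in dual therapy, Cxcl9 and Mki67 are higher in dual therapy than in contralateral vessels, and Kdr overlaps between the 2 groups.

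Endothelial identity and barrier genes were called about as often as all genes tested, of which 12.8% were called. Of 19 endothelial identity genes, 2 fell and none rose, with a median of -0.02. Pecam1 (-0.11 ± 0.12) and Cdh5, which encodes VE-cadherin (-0.18 ± 0.15), were not called. Clec14a, a lectin gene of endothelial cells, scored 2116, 1654 and 1875 in dual therapy vessels and 2794, 2885 and 3046 in untreated tumour, against 3318, 2658 and 2950 in contralateral and 1672, 2008 and 1811 in sham vessels (-0.66 ± 0.11, limma adjusted p = 0.000545). The dual therapy values overlapped those of sham, and contralateral vessels were above sham (0.70 ± 0.11, adjusted p = 0.00776). Vwf, which encodes von Willebrand factor, fell by 0.59 ± 0.17, a call lost in 7 of 17 alternatives. With quantile normalisation or without contralateral replicate 2, 1 identity gene rose and 1 fell.

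Of 35 barrier genes, 1 rose and 3 fell, beside 6.91% and 5.89% of all genes tested. Their median was -0.07, while the median of untreated tumour over contralateral vessels was -0.70. Against untreated tumour, 21 of the 35 were higher in dual therapy and none lower, beside 12.1% and 10.2% of all genes tested. Cldn5, the main tight junction claudin, scored 5821, 7830 and 6619 in dual therapy vessels, against 6595, 8342 and 6420 in contralateral vessels (-0.08 ± 0.15, limma adjusted p = 0.794). Mfsd2a, a lipid transporter that restrains transcytosis, scored 812, 1183 and 820 in dual therapy and 453, 627 and 342 in untreated tumour, against 577, 963 and 813 in contralateral vessels (0.27 ± 0.22; against untreated tumour 1.0 ± 0.22, adjusted p = 0.00381). Neither gene separated dual therapy from contralateral vessels. The efflux pump gene Abcb1a (-0.15 ± 0.14), the glucose transporter gene Slc2a1 (-0.33 ± 0.18) and the organic anion transporter gene Slc22a8 (-0.27 ± 0.15) were not called over contralateral vessels, and all of them were higher than in untreated tumour (0.83 ± 0.14, 0.65 ± 0.18 and 0.96 ± 0.15). Slco2b1 rose by 0.39 ± 0.11. The 3 that fell were Slc16a1, the lactate transporter MCT1 (-0.67 ± 0.17), Abcc4 (-0.56 ± 0.15) and Ttr, the thyroxine carrier made by choroid plexus (-1.41 ± 0.39). None of them fell without dual therapy replicate 3 or contralateral replicate 3, and 1 fell without contralateral replicate 1. No barrier gene rose without dual therapy replicate 2, contralateral replicate 1 or contralateral replicate 3, and 3 rose with quantile normalisation. Of 25 Wnt and beta-catenin genes, Reck, a coreceptor of Wnt7 ligands, fell (-0.61 ± 0.18), a call lost in 6 of 17 alternatives. Axin2, a feedback target of the pathway, had -0.28 ± 0.14 over contralateral vessels and was higher than in untreated tumour (0.62 ± 0.14, adjusted p = 0.00368). Of 15 arterial genes, Gkn3 fell (-0.69 ± 0.21), a call lost in 8 alternatives. With 1 fallen and no risen member each, the Wnt and arterial lists lay near the 5.89% of all genes tested that fell.

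Some adhesion molecules that bring leukocytes to the vessel wall rose. Of 15 genes of the venous and leukocyte adhesion list, 4 rose and 1 fell, beside 6.91% and 5.89% of all genes tested. Selp, which encodes P-selectin for leukocyte rolling, scored 162, 56 and 81 in dual therapy vessels, against 11, 17 and 3 in contralateral vessels (3.26 ± 0.65, limma adjusted p = 0.0024). Ackr1, a chemokine-carrying receptor of venules, scored 503, 184 and 222 in dual therapy vessels, against 83, 87 and 47 in contralateral vessels (1.96 ± 0.46, adjusted p = 0.00728). The groups did not overlap for either gene. Icam1, the integrin ligand for firm adhesion, rose by 0.75 ± 0.19 and Tmsb10 by 1.0 ± 0.26, while Vcam1 was not called (0.43 ± 0.19). Cx3cl1, the membrane-bound chemokine fractalkine, fell by 0.69 ± 0.18. Without dual therapy replicate 1 or 3, or contralateral replicate 3, 2 members rose.

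**Figure D4:**
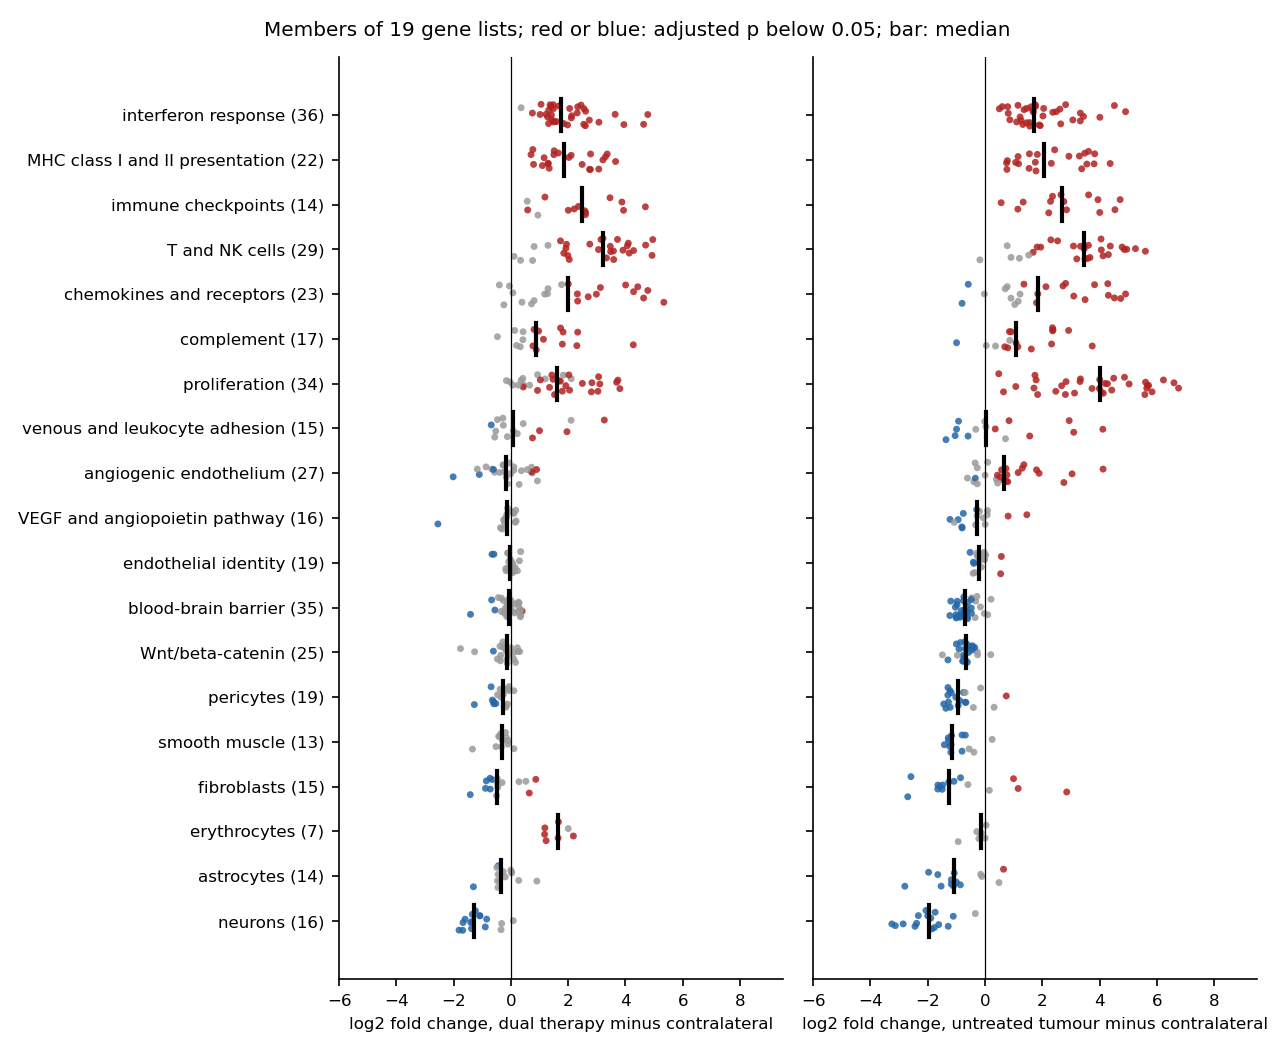
Log2 fold changes of the members of 19 lists (members tested in brackets), dual therapy minus contralateral on the left and untreated tumour minus contralateral on the right, with points in red or blue where the limma adjusted p was below 0.05 and bars at the median. Interferon genes have medians of 1.76 and 1.72, proliferation genes 1.60 and 4.03, and barrier genes -0.07 and -0.70; both panels share the contralateral libraries.

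Some markers of vessel wall cells were lower than in contralateral vessels. Of 19 pericyte markers, 6 fell and none rose, beside 5.89% and 6.91% of all genes tested, with a median of -0.26. The list median of dual therapy over sham vessels was -0.11, and that of contralateral over sham vessels was 0.25. Pdgfrb, the receptor that recruits pericytes, scored 2857, 2638 and 2272 in dual therapy vessels and 1585, 1604 and 1845 in untreated tumour, against 3475, 4484 and 3838 in contralateral and 2700, 3282 and 3006 in sham vessels (-0.60 ± 0.13, limma adjusted p = 0.00387). It was higher than in untreated tumour (0.62 ± 0.13). Vtn fell by 0.65 ± 0.14, and Kcnj8 (-1.28 ± 0.32) and Abcc9 (-0.69 ± 0.20), which encode the channel of pericytes that couples metabolism to membrane voltage, fell too. Kcnj8 scored 136, 134 and 127 in dual therapy vessels, against 213, 516 and 304 in contralateral vessels, with no overlap. Cd248, the pericyte glycoprotein endosialin, fell by 0.60 ± 0.15. Rgs5, a signalling regulator used to mark pericytes, was not called (-0.11 ± 0.15), and summed pericyte scores overlapped, at 56010 to 67484 in dual therapy and 64067 to 80370 in contralateral vessels. Of 13 smooth muscle genes none was called, at a median of -0.30. Over sham vessels their median was -0.01 in dual therapy and 0.26 in contralateral vessels. The contractile genes Acta2 (-0.17 ± 0.26) and Myh11 (-0.35 ± 0.27) were each higher than in untreated tumour (1.02 ± 0.26 and 1.07 ± 0.27).

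Fibroblast genes divided. Of 15 markers, 6 fell and 2 rose, beside 5.89% and 6.91% of all genes tested. Igf2, a growth factor of meningeal and perivascular fibroblasts, scored 6724, 6679 and 5528 in dual therapy vessels, against 13196, 9783 and 12217 in contralateral vessels (-0.89 ± 0.15, limma adjusted p = 0.000697), and Fmod, a collagen-binding proteoglycan, fell by 1.42 ± 0.36. The collagen genes Col3a1 (0.64 ± 0.18) and Col6a3 (0.87 ± 0.27) rose, and Col1a1 was not called (0.52 ± 0.20). Counts here were unsteady: 2 or 3 markers fell without dual therapy replicate 2 or 3 or contralateral replicate 1 or 3, and none rose without dual therapy replicate 1 or contralateral replicate 3. Of 33 matrix genes, 4 rose and 2 fell, beside 6.91% and 5.89% of all genes tested. Tnc, the glycoprotein tenascin C of tumours and wounds, scored 239, 203 and 392 in dual therapy and 2395, 563 and 1613 in untreated tumour, against 68, 102 and 61 in contralateral vessels (1.82 ± 0.38, adjusted p = 0.00344). Vcan (0.97 ± 0.25), Mmp2 (1.10 ± 0.32) and Mmp14 rose with it. Plat, which encodes tissue plasminogen activator, fell by 0.80 ± 0.21, and Spp1 is the other fallen member. Without contralateral replicate 3, 1 matrix gene rose, without dual therapy replicate 1 or 3, 2 rose, and without dual therapy replicate 1, 5 fell.

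A small set of genes lay beyond both the contralateral hemisphere and untreated tumour. Of the 1360 risen genes, 63 were also higher than untreated tumour, 362 were lower than it and 935 were not called against it. Of the 1158 fallen genes, 50 were also lower than untreated tumour, 422 were higher and 686 were not called. Both tests share the dual therapy libraries. Beside Igfbp3, the fallen genes were led by Cdh18, a cadherin (-1.78 ± 0.52), Acat2, an enzyme of acetyl-CoA metabolism (-1.48 ± 0.39), Ctgf (-1.44 ± 0.17), Exoc3l2 (-1.41 ± 0.37), Lgi3 (-1.24 ± 0.29), Sema3b, a secreted semaphorin (-1.20 ± 0.38), and Kcnj13, a potassium channel (-1.04 ± 0.32). Ctgf, a matrix-associated gene induced by TGF-beta and YAP (ENSMUSG00000019997, chromosome 10, 24595442 to 24598683), scored 1308, 997 and 1151 in dual therapy and 2764, 3168 and 2055 in untreated tumour, against 2795, 3961 and 2718 in contralateral and 670, 999 and 879 in sham vessels (limma adjusted p = 2.22e-05). Dual therapy lay below contralateral vessels without overlap, and contralateral vessels lay above sham (1.89 ± 0.17, adjusted p = 4.13e-05). Calls of Cdh18, Kcnj13 and Sema3b were lost in 7, 7 and 9 of 17 alternatives.

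The 8 risen genes named from this set, ranked by the smaller of both fold changes, included Alas2 and 4 globin genes of red blood cells. Alas2, the first enzyme of haem synthesis in erythroid cells (ENSMUSG00000025270, chromosome X, 150547375 to 150570638), scored 1498, 3201 and 1578 in dual therapy and 408, 1104 and 551 in untreated tumour, against 507, 888 and 546 in contralateral and 1004, 1468 and 1518 in sham vessels. Its log2 fold change was 1.65 ± 0.32 over contralateral vessels (limma adjusted p = 0.00202) and 1.64 ± 0.32 against untreated tumour (adjusted p = 0.00161). The globin gene Hbb-bt scored 283, 418 and 149 in dual therapy vessels, against 74, 163 and 45 in contralateral and 172, 255 and 182 in sham vessels (1.66 ± 0.39), with overlap between dual therapy and contralateral libraries. Hbb-bs (1.19 ± 0.37), Hba-a1 (1.18 ± 0.32), Hba-a2 (1.23 ± 0.31) and Slc4a1, the anion exchanger of red cells (2.18 ± 0.68), rose. The paired globin genes are near-identical copies, so their split is uncertain. In all 6 of 7 tested erythrocyte markers rose, beside 6.91% of all genes tested. Dual therapy lay wholly above contralateral vessels for 2 of the 7, beside 14.8% of all genes tested. The list median over contralateral vessels was 1.65 in dual therapy and 1.33 in triple therapy, and no marker was called between these 2 groups. Summed scores of the list were 3271 to 7372 in dual therapy and 3788 to 6356 in triple therapy. Only 1 marker rose without dual therapy replicate 2 or without contralateral replicate 3, 2 without contralateral replicate 1 and 3 without dual therapy replicate 1. Haemoglobin genes took 0.0274%, 0.0319% and 0.0139% of the score in dual therapy, against 0.00775%, 0.0167% and 0.00735% in contralateral and 0.0188% to 0.0221% in sham vessels. Fam46c (1.33 ± 0.23), Nos2, the inducible nitric oxide synthase (1.30 ± 0.31), and Cdk15 (1.19 ± 0.34) rose beside them. How much blood was left in each preparation was not tested.

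Neuronal genes were lower in dual therapy vessels. Of 16 neuron markers, 13 fell and none rose, with a median of -1.29, against 5.89% of all genes tested that fell. Gad1, which makes the transmitter GABA (ENSMUSG00000070880, chromosome 2, 70562042 to 70602014), scored 128, 132 and 249 in dual therapy and 80, 42 and 50 in untreated tumour, against 411, 555 and 522 in contralateral and 588, 687 and 854 in sham vessels (-1.60 ± 0.26, limma adjusted p = 0.000442). Slc17a7, the vesicular glutamate transporter, fell by 1.4 ± 0.22, Syn1, a synaptic vesicle protein, by 1.38 ± 0.19 and Gad2 by 1.81 ± 0.34. Both inhibitory and excitatory markers therefore fell. Nefl, a neurofilament gene, was uneven, at 214, 211 and 801 in dual therapy vessels, against 385, 376 and 514 in contralateral vessels (-0.35 ± 0.43). Summed neuron scores were 6641 to 11993 in dual therapy and 2953 to 5206 in untreated tumour, against 15167 to 18204 in contralateral and 22920 to 31588 in sham vessels. In the direct test 12 of the 16 were higher in dual therapy than in untreated tumour, beside 12.1% of all genes tested.

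The 12 genes with the largest falls were chosen by the same minimum of 50 and the same lack of overlap. Among them, Glra3, a glycine receptor subunit, scored 26, 0 and 12 in dual therapy vessels, against 82, 96 and 86 in contralateral vessels (-3.65 ± 0.85, limma adjusted p = 0.00738). Slc32a1, the vesicular GABA transporter, fell by 2.42 ± 0.51 and Sv2b, a synaptic vesicle gene, by 2.02 ± 0.38. Gpr158, a receptor gene of the brain (ENSMUSG00000045967, chromosome 2, 21367542 to 21830547), scored 133, 98 and 93 in dual therapy vessels, against 418, 455 and 470 in contralateral vessels (-2.06 ± 0.19, adjusted p = 2.18e-06). Cdh26, Hs6st3, Fam205c, Htr5a, Mpped1, Kcnv1, Lrrtm1 and Nxph1 complete the 12, with log2 fold changes between -2.78 and -2.09. Where the neuronal RNA in these microvessel preparations came from was not measured, and its part in the other falls was not tested.

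Markers of other brain cells differed less, beside 6.91% of all genes tested that rose and 5.89% that fell. Of 14 astrocyte markers, Agt (-1.31 ± 0.39) and Gja1 (-0.44 ± 0.14) fell, calls lost in 6 and 11 of 17 alternatives, and the filament gene Gfap was not called (0.91 ± 0.34), at 868, 1946 and 3625 in dual therapy vessels, against 717, 1220 and 1064 in contralateral vessels. Of 12 oligodendrocyte genes none was called, and their summed scores spread from 14436 to 41254 in dual therapy, against 19302 to 21883 in contralateral vessels. Without dual therapy replicate 1, 3 oligodendrocyte genes rose, and without replicate 3, 2 fell. Of 9 ependyma and choroid plexus genes, Ttr and Kl fell (-1.41 ± 0.39 and -1.08 ± 0.34). Ttr scored 30445, 21214 and 15590 in dual therapy vessels, against 80756, 39222 and 59981 in contralateral and 21779, 23566 and 21724 in sham vessels. Summed choroid plexus scores were 16600 to 32304 in dual therapy, against 40991 to 84506 in contralateral and 23065 to 25262 in sham vessels. No gene of this list fell without dual therapy replicate 2 or 3, or contralateral replicate 1 or 3, and 5 fell without contralateral replicate 2.

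In pathways of metabolism and signalling 0 to 4 members were called, beside 12.8% of all genes tested. Of 27 hypoxia and glycolysis genes, Hk2, which encodes hexokinase 2, rose (201, 119 and 236 in dual therapy vessels, against 59, 79 and 49 in contralateral vessels; 1.53 ± 0.30, limma adjusted p = 0.00187). Pdk1 (-0.64 ± 0.16), Aldoa (-0.60 ± 0.11) and Gapdh (-0.51 ± 0.16) fell, the calls of Pdk1 and Gapdh being lost in 5 and 9 of 17 alternatives. Against untreated tumour, 9 of the 27 were lower, beside 10.2% of all genes tested. Of 21 genes of TGF-beta and BMP signalling, Ltbp2 rose (1.12 ± 0.35, lost in 10 of 17 alternatives), and Ctgf and Bmp6 fell (-0.99 ± 0.20 for Bmp6). Of 16 Notch genes, Lfng, which modifies Notch receptors, rose (0.52 ± 0.15, lost in 6 of 17 alternatives), and Dll4 and Heyl, a Notch target of mural cells, fell (-0.90 ± 0.18 for Heyl). None of 17 cholesterol synthesis genes was called, and of 17 hemostasis genes S100a10 rose (0.57 ± 0.12) and Vwf and Plat fell. These counts moved with single libraries: without dual therapy replicate 2, 1 hypoxia gene fell, and without dual therapy replicate 1, 5 did. Without dual therapy replicate 1 or 3, or contralateral replicate 3, neither Ltbp2 nor Lfng rose, and no hemostasis gene fell without dual therapy replicate 3.

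Few genes differed between dual and triple therapy. Of the 19668 genes 68 were higher and 103 lower in dual therapy, 0.869% of those tested in all. Sphkap, which binds sphingosine kinase, scored 109, 97 and 163 in dual therapy, against 409, 375 and 279 in triple therapy (-1.54 ± 0.24, limma adjusted p = 0.00976), and Gpr158 lay 1.20 ± 0.19 lower on the log2 scale in dual therapy. Diras2 (-1.44 ± 0.25), Extl1 (-1.43 ± 0.31), Hydin (-1.54 ± 0.28) and Prmt8 (-1.73 ± 0.36) were lower as well. Ccr3, the receptor of eosinophils, scored 35, 71 and 75 in dual therapy, against 7, 6 and 4 in triple therapy (3.15 ± 0.67, adjusted p = 0.0359), and Dusp1, an early response phosphatase, was higher by 1.06 ± 0.24. Contralateral vessels held 0, 4 and 2 for Ccr3 and 480, 915 and 547 for Dusp1. No gene was called without triple therapy replicate 1, without dual therapy replicate 2 or with endothelial identity scaling, so these calls depend on single libraries and on the scaling.

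Against untreated tumour, 2376 genes were higher in dual therapy and 2001 lower, 22.3% of those tested. Pif1, a helicase of dividing cells (-4.38 ± 0.75), Ckap2, a spindle gene (-3.83 ± 0.55), and Mmp10, a matrix protease (-3.65 ± 0.70), were among the largest differences. Ckap2 scored 45, 8 and 11 in dual therapy, against 349, 162 and 247 in untreated tumour (limma adjusted p = 0.000151). Without untreated replicate 1 the calls dropped to 2844, and with only the 6 libraries compared to 2205. With the libraries scaled to equal endothelial identity, 41.6% of the calls were higher in dual therapy, against 54.3% in the fit as reported. Mitochondrial ribosomal RNA took 15.2% to 17.4% of the score in dual therapy and 21.5% to 33.2% in untreated tumour, against 14.5% to 15.8% in contralateral vessels, and its part in this difference was not tested.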

How the data were processed

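Microvessel RNA was prepared with a stranded total RNA kit, per the labels' protocols. Per the submitters' processing notes, reads were handled with STAR 2.4.0a, featureCounts 1.4.5-p1 and DESeq2 on GRCm38 (mm10); the role of each tool and the use of strand in counting are not given in the sources used here. The values deposited by the authors are scores, reads scaled per library and rounded to whole numbers, so no count test was run as the main test. Depth was estimated from the step between low scores; it is an estimate, less sure where 1 read is worth little, and for triple therapy replicate 3 near-equal solutions a few percent apart were found.

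Testing was limited to genes scoring 10 or more in 3 libraries and used log2(score + 1), a pseudocount of 1, with limma 3.58.1 in R 4.3.3 (mean-variance trend, 1 mean per group, all 15 libraries). Calls were made at a Benjamini-Hochberg adjusted p below 0.05. The code was tested on simulated data. The libraries are labelled biological replicates. Of the gene identifiers, 99.8% were found in GENCODE M21.

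Genes were named by rule: the 12 largest changes in each direction, up to 8 in each direction also called against untreated tumour, up to 4 of each list, the drug targets, and up to 6 in each direction against untreated tumour and triple therapy. Other list members named were chosen after their values were seen. The members and lists were chosen with earlier results of these data known. Alternatives changed the pseudocount, filter, libraries, normalisation, trend, weights and replicate block; voom on estimated reads was chosen after seeing the data. Some genes are not reported here.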

Additional observations from a re-analysis of the deposited data

Results flagged for a closer look

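The effects of dual therapy and of untreated tumour were each measured over the same 3 contralateral libraries, and the difference between these effects was tested directly as dual therapy minus untreated tumour. It passed the limma threshold for 4377 genes. Among the genes named because they also differed from contralateral vessels in the same direction, those lower in dual therapy than in untreated tumour were Igfbp3 (-3.18 on the log2 scale), Exoc3l2 (-1.73), Cdh18 (-1.70), Acat2 (-1.29), Sema3b (-1.20), Ctgf (-1.19), Lgi3 (-1.06) and Kcnj13 (-1.02). Those higher in dual therapy were Cdk15 (2.38), Hbb-bt (1.79), Alas2 (1.64), Hbb-bs (1.47), Hba-a2 (1.38), Fam46c (1.23), Nos2 (1.15) and Hba-a1 (1.14). Groups of 3 libraries are too small for the check for outlying samples.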

How the results depend on the processing

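Calls of dual therapy against contralateral vessels numbered 2518, between 1555 (endothelial identity scaling) and 2747 (library quality weights) over the alternatives that kept all libraries, and between 1587 and 2194 when 1 library was left out. Calls against untreated tumour numbered 4377, with 2205 from the 6 libraries compared alone and 2844 to 4649 when 1 library was left out. Calls against triple therapy numbered 171, with 31 from the 6 libraries alone, 14 without the mean-variance trend, 327 with library quality weights, 0 with endothelial identity scaling and 0 to 276 when 1 library was left out. Before adjustment 2850 genes had a p below 0.05 in that comparison, and voom on estimated reads called 239. Replicate numbers are shared between groups with no stated pairing. Same-numbered dual therapy and contralateral libraries correlated at 0.0378 to 0.0615 in their deviations from the group means, and each library correlated best with its own number. A replicate block over all 15 libraries gave 2484, 4353 and 169 calls in the 3 comparisons, and over the 6 libraries compared 2330, 3172 and 0. Of 156 called genes named, 95 kept call and direction under every alternative that gave a value, and 11 of 37 uncalled genes were called under at least 1. Calls of Cx3cr1, Mmp2, Abcc9 and Cdk15 were lost in 7, 7, 6 and 6 of 17 alternatives. Of 3269 pairs of gene and alternative, 9 changed sign, all in genes not called. Flt1 was at 0.052 with quantile normalisation. When 1 library was left out, Angpt2 ranged from -0.15 to 0.67, Cdh5 from -0.29 to 0.040, Cldn5 from -0.19 to 0.044, Tie1 from -0.016 to 0.15 and Vegfa from -0.13 to 0.24. The cause was not tested. With 3 pools a group, and low scores for many immune genes, small differences can be missed.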
